A study of Arabidopsis thaliana with 9 samples.

Results

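The plastid genome of Arabidopsis thaliana encodes core subunits of the photosynthetic complexes and part of the machinery that expresses them. Probe sets were taken as plastid-encoded when the platform annotation assigned them to a gene with a plastid locus tag, which gave 77 of the 16863 probe sets, for 76 genes. The rule itself uses the annotation and no measured value. Mitochondrial genes of the same name, such as rps7 and rps12, were kept out through their gene identifiers. By product the 77 probe sets fell into photosystem I (7, with the assembly factors ycf3 and ycf4), photosystem II (15), cytochrome b6f (6), ATP synthase (6), the NDH complex (11), Rubisco (1), RNA polymerase (4), ribosomal proteins of the small (11) and large subunit (9) and others (7). The gene rps12 had 2 probe sets, and 8 probe sets matched more than 1 plastid locus, mostly because the gene lies in the repeated part of the genome.

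Above-ground parts of seedlings were profiled on expression arrays in 3 genotypes, all in the Col-0 background, with 3 arrays each and 9 in all. These were wild-type seedlings aged 7 days and seedlings of the mutants cct-1 and gct-2 aged 9 days, each array being a pool of 75 to 100 soil-grown seedlings kept under long days (16 h light, 8 h dark) at 23 °C. Harvest was set by stage, with the first leaf primordia 1 mm long, and seedlings without cotyledons or leaf primordia were left out, so that a mutant's difference from wild type cannot be told apart from 2 further days of growth. CCT and GCT encode MED12 and MED13 of the CDK8 module of Mediator, which links transcription factors to RNA polymerase II in the nucleus. The series asked how loss of these subunits changes the seedling transcriptome. No probe set named for CCT or GCT was used here, so the genotype labels were not checked through the mutated genes.

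Most plastid genes lie in clusters that are copied into long shared transcripts and then cut, spliced and trimmed by nuclear-encoded RNA-binding proteins. A plastid-encoded RNA polymerase of bacterial type, whose core is the product of rpoA, rpoB, rpoC1 and rpoC2, transcribes most photosynthesis genes. A nuclear-encoded polymerase of phage type transcribes the rpoB cluster and accD, while others such as clpP can be read by both. Photosystem II splits water, cytochrome b6f passes electrons to photosystem I, ATP synthase uses the resulting proton gradient, and the NDH complex returns electrons from photosystem I to the carriers. No sequence is shown, since none of these genes was given with one here.

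All values are deposited log2 expression values, whose scale depends on the probe set. Expression is therefore compared between genotypes and not between genes. Values are ranked across members only to describe the spread and the size of differences. Testing required a value above the 40th percentile of the array (6.83 to 6.87) on at least 3 arrays, which 69 of the 77 members had. The 8 others were atpI, petN, petL, petG, ndhB, ndhF, ycf2 and rpoB, which lay under that level on all 9 arrays. The members petD and ndhJ lay above it on 6 arrays and the other 67 on all 9. Members with a limma p under 0.05 after Benjamini-Hochberg adjustment over all 10395 tested probe sets are referred to as called.

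Array medians lay between 7.70 and 7.76, and arrays of the same genotype correlated at 0.974 to 0.991 over the tested probe sets (Pearson's r), those of different genotypes at 0.937 to 0.974. The green shoot markers RCA, the Rubisco activase gene, and LHCB4.2, an antenna protein gene, were the 2 of 13 with a named probe set, and both lay above the filter on all 9 arrays. Of 7 root markers only PYK10, a beta-glucosidase gene also active in seedling shoots, had one. It differed from wild type by 0.75 in cct-1 (SE 0.10, limma adjusted p = 0.0019) and 0.68 in gct-2 (SE 0.10, limma adjusted p = 0.00248), and its part in the results below was not tested. Of 10 markers of maturing seeds 0 had a named probe set, and these were not analysed here. In whole shoots, fewer plastids or green cells and less RNA in each cannot be told apart.

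Few plastid genes were called in either mutant, and those called against wild type all fell. In cct-1, 1 of the 69 tested members was called (1.45%), against 12.9% of all tested probe sets (6.3% higher and 6.63% lower). In gct-2, 4 were called (5.8%), against 15.3% of all (7.48% higher and 7.77% lower). Fits of gct-2 that left out wild-type replicate 1 or gct-2 replicate 1 instead called 1 and 2 members, all higher, and leaving out wild-type replicate 2 gave 0 in both mutants. At an unadjusted p under 0.05 in limma there were 14 members in cct-1 and 13 in gct-2, against 28.9% and 31.3% of all tested probe sets. The mean was lower than in wild type for 64 of the 77 members in cct-1 (83.1%, against 47.6% of all 16826 probe sets other than controls) and for 55 in gct-2 (71.4%, against 51.1%). The median log2 difference was -0.14 in cct-1 and -0.12 in gct-2, where that of all these probe sets was 0.02 and -0.01. All 3 cct-1 arrays lay below all wild-type arrays for 21 of the 77 and above them for 2, against 15.3% and 16.5% of all. In gct-2 the counts were 18 below and 7 above, against 18.8% and 18.3%. Both comparisons use the same wild-type arrays, and members measured on the same arrays are not independent.

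**Figure D1:**
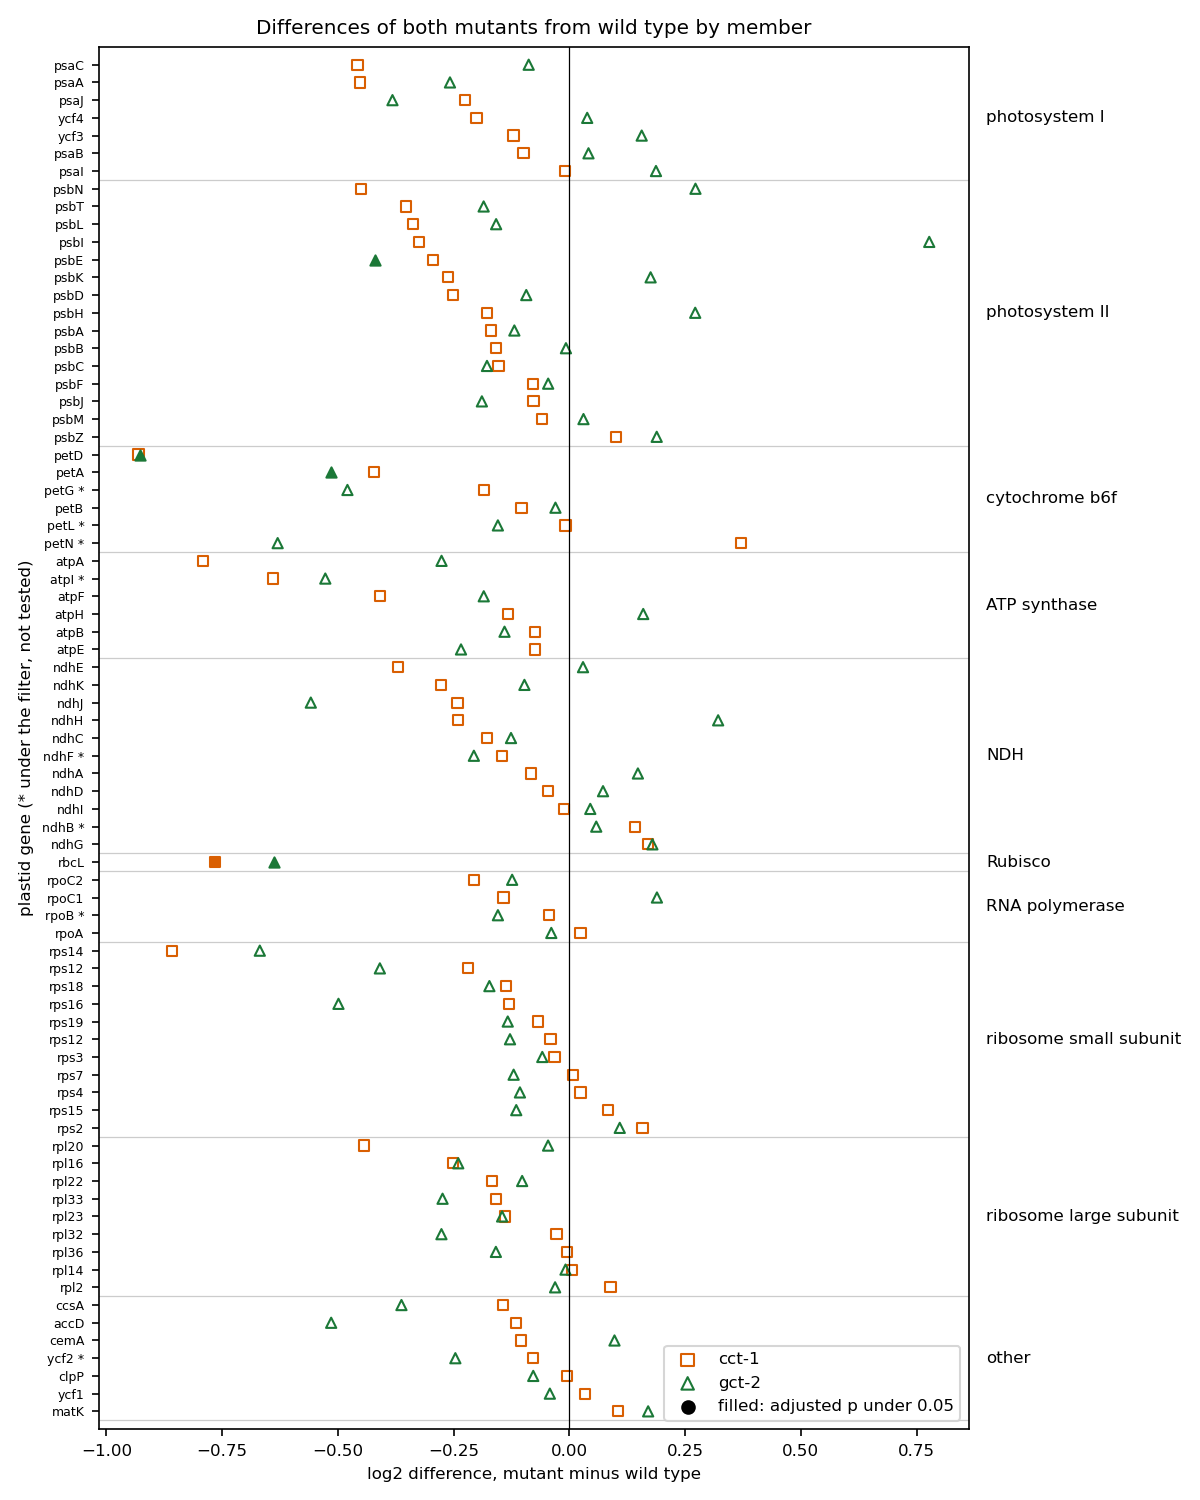
Log2 difference of cct-1 (squares) and gct-2 (triangles) from wild type for each of the 77 plastid probe sets, grouped by product, with filled symbols where the limma adjusted p was under 0.05 and an asterisk where the member lay under the filter. Most symbols lie between -0.30 and 0.30, and rbcL is the member filled in both mutants.

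The arrays of a mutant did not move alike. Over all members the median deviation from the wild-type mean was -0.04, -0.15 and -0.15 on the 3 cct-1 arrays and -0.19, 0.00 and -0.08 on the 3 gct-2 arrays. It was 0.02, 0.04 and -0.04 on the wild-type arrays. Replicate 1 of cct-1 thus lay beside the lowest wild-type array for the typical member, gct-2 replicate 1 was the lowest of all 9, and gct-2 replicate 2 lay within the range of wild type.

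The member called in both mutants was rbcL, which encodes the large, catalytic subunit of Rubisco, the enzyme that fixes carbon dioxide. Its values were 11.89, 11.88 and 11.62 on the wild-type arrays, 11.25, 10.84 and 11.01 in cct-1 and 10.90, 11.16 and 11.42 in gct-2. Each mutant array lay below each wild-type array, and the mutants overlapped. The level fell 1.7-fold in cct-1 (log2 difference -0.76, SE 0.15, limma adjusted p = 0.0127) and 1.56-fold in gct-2 (-0.64, SE 0.15, limma adjusted p = 0.0227). Between the mutants rbcL differed by -0.13 (95% interval -0.47 to 0.22). The call in cct-1 held in 8 of 9 fits with 1 array left out, the exception being the fit that lacked wild-type replicate 2 (adjusted p = 0.0571). That in gct-2 held in 5 of 9, and the same array's absence raised its adjusted p to 0.0835.

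Of the 3 tested genes of cytochrome b6f 2 were called in gct-2, both lower, and 0 in cct-1, against 15.3% and 12.9% of all tested probe sets. petA encodes cytochrome f, and its values were 10.26, 10.38 and 10.25 in wild type, 9.62, 10.04 and 9.96 in cct-1 and 9.52, 9.93 and 9.89 in gct-2. All mutant arrays lay below all wild-type arrays. It fell 1.43-fold in gct-2 (log2 difference -0.51, SE 0.14, limma adjusted p = 0.0363) and differed by -0.42 in cct-1 (limma adjusted p = 0.0764). The cct-1 difference was called with array weights (limma adjusted p = 0.0480), the replicate block (0.0426) and a robust variance that follows intensity (0.0443). Leaving out gct-2 replicate 1 also gave that call (0.0471). Between the mutants petA differed by 0.09 (95% interval -0.22 to 0.40). petD, which encodes subunit IV, had values of 7.74, 8.27 and 7.27 in wild type, 7.06, 6.47 and 6.96 in cct-1 and 6.53, 6.77 and 7.20 in gct-2. Here too the mutant arrays lay below the wild-type arrays, but 2 of 3 in cct-1 and 1 of 3 in gct-2 lay above the filter, and the gap between the lowest wild-type and the highest gct-2 array was small beside the spread.

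The decrease of petD was 1.9-fold in gct-2 (log2 difference -0.93, SE 0.27, limma adjusted p = 0.0465). In cct-1 it was as large (-0.93, SE 0.27) with an adjusted p of 0.0515 in limma, on the other side of the threshold, which it passed after quantile normalization (0.0468). In cct-1 petD was also called with median centring (limma adjusted p = 0.0468), the robust variance (0.0327), array weights (0.0210) and without wild-type replicate 3 (0.0218). Its neighbour petB, which encodes cytochrome b6 and shares the psbB transcript with petD, differed by only -0.10 (95% interval -0.28 to 0.07) and -0.03 (-0.21 to 0.15). The small subunit genes petG, petL and petN lay under the filter. Among them petN had values of 6.46, 6.55 and 5.56 in wild type, 6.65, 6.38 and 6.65 in cct-1 and 4.99, 5.37 and 6.31 in gct-2, so that the mutants lay apart and each overlapped wild type. Leaving out 1 array at a time kept the calls of petA and petD in gct-2 in 3 of 9 fits each, and without wild-type replicate 2 their adjusted p was 0.119 and 0.142.

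**Figure D2:**
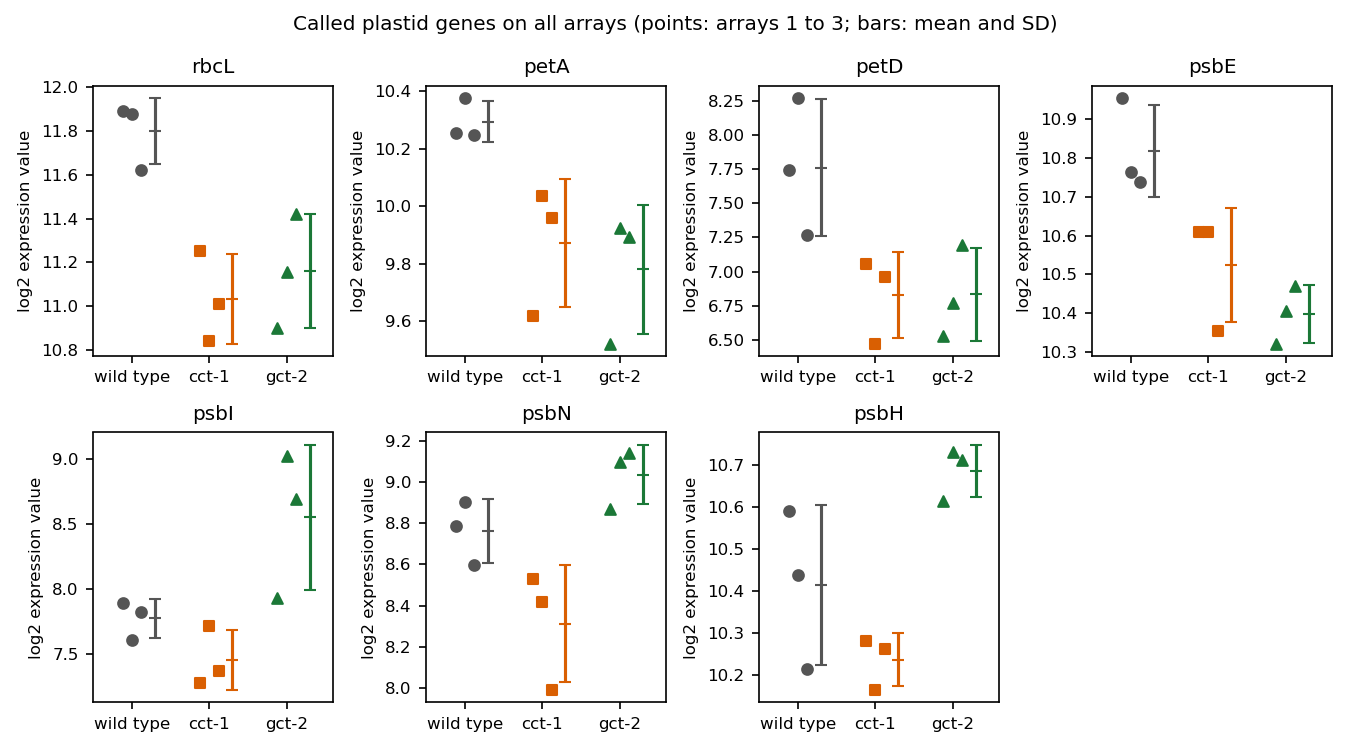
Log2 expression values of the 7 plastid genes called in at least 1 comparison, with a point for each array of wild type, cct-1 and gct-2 and a bar for the mean and SD (n = 3); the vertical axes differ between panels and do not start at 0. rbcL, petA, petD and psbE lie lower in both mutants, whereas psbI, psbN and psbH lie higher in gct-2 than in cct-1.

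Photosystem genes had means a little under wild type in cct-1, while in gct-2 their median difference was close to 0. In cct-1, 21 of 22 photosystem members had a mean under wild type (median -0.19), with all 3 arrays below all wild-type arrays for 8 of them, a pattern seen in 15.3% of all probe sets. In gct-2, 12 of 22 were lower (median -0.03), with 3 wholly below and 4 wholly above wild type, against 18.8% and 18.3% of all probe sets. The median in gct-2 was 0.00 after quantile normalization, 0.04 without gct-2 replicate 1 and -0.08, with 14 of 22 lower, without gct-2 replicate 2. In cct-1 it stayed between -0.24 and -0.17 with any 1 array left out. No photosystem member was called in cct-1 with limma (0 of 22, against 12.9% of all tested probe sets), and 5 had an unadjusted p under 0.05 (against 28.9%). In gct-2 1 of 22 was called, against 15.3% of all.

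That 1 was psbE, which encodes the alpha subunit of cytochrome b559 in photosystem II. Its values were 10.95, 10.76 and 10.74 in wild type, 10.61, 10.61 and 10.35 in cct-1 and 10.32, 10.40 and 10.47 in gct-2. It lay below wild type on all 6 mutant arrays and fell 1.34-fold in gct-2 (log2 difference -0.42, SE 0.10, limma adjusted p = 0.0216), while it differed by -0.29 in cct-1 (adjusted p = 0.0819). psbF, psbL and psbJ follow it in the same gene cluster, where psbF encodes the other subunit of the cytochrome. psbF differed by -0.08 in cct-1 and -0.05 in gct-2, psbL by -0.34 and -0.16, and psbJ by -0.08 and -0.19. Leaving out 1 array kept this call of psbE in 5 of 9 fits, and its highest adjusted p was 0.0663, in the absence of gct-2 replicate 2.

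Among the reaction centre genes, psbA, which encodes the D1 protein, differed by -0.17 in cct-1 (95% interval -0.34 to 0.00) and -0.12 in gct-2 (-0.29 to 0.05). psbD, which encodes D2, differed by -0.25 and -0.09, and the core antenna genes psbB and psbC by -0.16 and -0.15 in cct-1. In photosystem I all 7 members were lower in cct-1 and 3 of 7 in gct-2. psaA, which encodes a reaction centre subunit, had values of 9.72, 9.77 and 9.63 in wild type, 9.60, 9.10 and 9.06 in cct-1 and 9.19, 9.52 and 9.64 in gct-2. The 3 cct-1 arrays lay below wild type, with replicate 1 close to it, and the difference of -0.45 was not called (limma adjusted p = 0.0951). Only 1 alternative fit called it, that without cct-1 replicate 1, the highest cct-1 array (-0.62, limma adjusted p = 0.0251). Its partner psaB differed by only -0.10 and 0.04, and psaC, for the iron-sulfur subunit, by -0.46 and -0.09 with overlapping arrays.

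**Figure D3:**
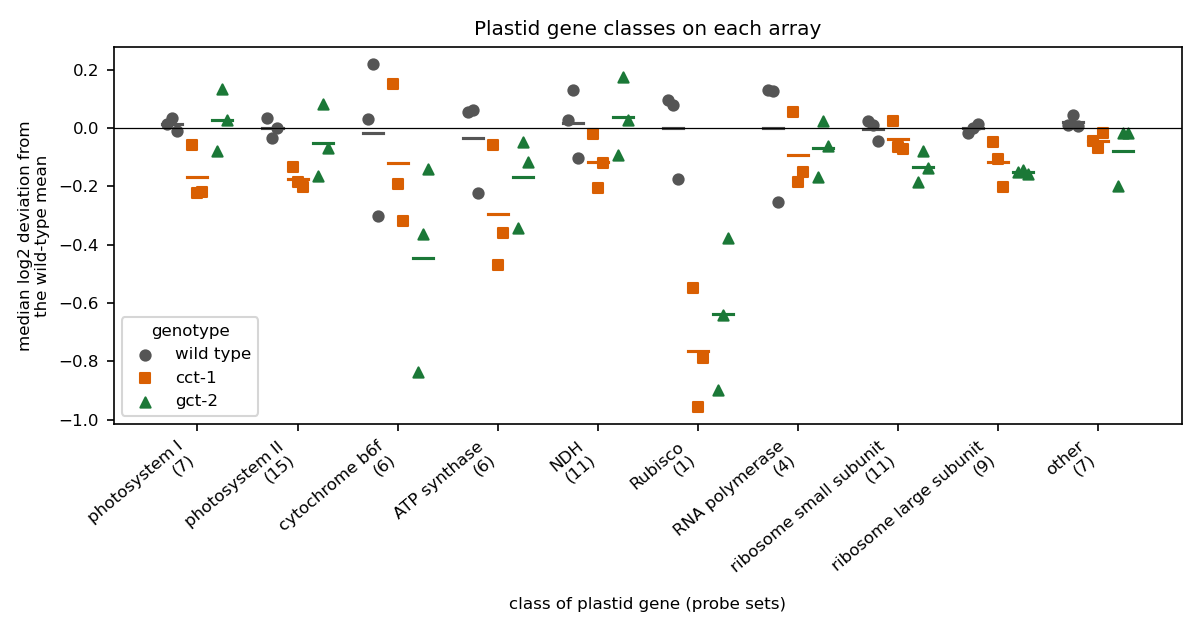
Median deviation of the members of each product class from their wild-type means on the log2 scale, with a point for each of the 9 arrays and a line for the genotype mean of the 3 points. Rubisco (rbcL) lies between -0.96 and -0.38 in the mutants, photosystem genes lie below wild type on the 3 cct-1 arrays, and ribosomal protein genes of the large subunit lie below the wild-type arrays on all 6 mutant arrays.

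All 6 ATP synthase genes had means under wild type in cct-1 (median -0.27), and 5 of 6 in gct-2 (median -0.21). Over the 5 tested members alone the medians were -0.13 and -0.18. With 1 array left out the median of all 6 reached -0.42 in cct-1, without cct-1 replicate 1, and -0.08 in gct-2, without gct-2 replicate 1. atpA, atpF, atpH and atpI, the last of them under the filter, are neighbours and differed by -0.79, -0.41, -0.13 and -0.64 in cct-1 and by -0.28, -0.18, 0.16 and -0.53 in gct-2. atpB and atpE, which encode the beta and epsilon subunits from another cluster, both differed by -0.07 in cct-1 and by -0.14 and -0.23 in gct-2. atpA, for the alpha subunit, had values of 10.03, 9.87 and 9.43 in wild type, 9.33, 8.71 and 8.91 in cct-1 and 8.98, 9.78 and 9.74 in gct-2. All cct-1 arrays lay below wild type, but the difference was not called (SE 0.25, limma adjusted p = 0.0678). It was called without gct-2 replicate 1 (limma adjusted p = 0.0317) and, at -0.96, without wild-type replicate 3, the lowest wild-type array (0.0491). Array weights also gave a call (0.0334), and no other alternative fit did. Of the ATP synthase members 0 of 5 tested were called in either mutant with limma, against 12.9% and 15.3% of all tested probe sets. An unadjusted p under 0.05 was found for 2 in cct-1 and 1 in gct-2, against 28.9% and 31.3% of all.

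NDH genes had a median difference of -0.15 in cct-1, with 9 of 11 members lower, and of 0.05 in gct-2, with 4 of 11 lower. Over the 9 tested members alone the medians were -0.18 and 0.05. None of the 9 tested was called in either mutant with limma, against 12.9% and 15.3% of all tested probe sets. An unadjusted p under 0.05 was found for 2 in cct-1 and 0 in gct-2, against 28.9% and 31.3% of all. In cct-1 the median of all 11 lay between -0.17 and -0.02 with any 1 array left out. In gct-2 it turned to -0.02 without gct-2 replicate 2. The cluster of ndhC, ndhK and ndhJ differed by -0.18, -0.28 and -0.24 in cct-1 and by -0.13, -0.10 and -0.56 in gct-2. For ndhK, a subunit that carries an iron-sulfur centre, the values were 11.03, 11.08 and 10.90 in wild type, 10.82, 10.59 and 10.77 in cct-1 and 10.84, 10.96 and 10.92 in gct-2. The cct-1 arrays lay below all others (limma adjusted p = 0.066 against wild type), while gct-2 overlapped wild type.

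The gene ndhH, in the cluster of psaC, had values of 7.49, 7.60 and 7.07 in wild type, 7.49, 6.87 and 7.07 in cct-1 and 7.62, 7.81 and 7.69 in gct-2. All gct-2 arrays lay above the others. The mutants differed by -0.56 (SE 0.18, limma adjusted p = 0.0982). ndhA differed between the mutants by -0.23 and ndhE by -0.40, and ndhI, next to ndhA, by only -0.06 (cct-1 minus gct-2). ndhB and ndhF lay under the filter and differed by at most 0.21 from wild type.

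Ribosomal protein genes had means slightly under wild type in both mutants. The large subunit members had nearly the same median in cct-1 (-0.14) and gct-2 (-0.15), and those of the small subunit -0.04 and -0.13. In gct-2, 19 of 20 ribosomal protein members had a mean under wild type (median -0.13), and in cct-1 14 of 20 (median -0.05). All 3 gct-2 arrays lay below all wild-type arrays for 10 of the 20, a pattern seen in 18.8% of all probe sets, against 5 of 20 in cct-1, where 15.3% of all probe sets show it. The decreases were small, and 0 of 20 were called in either mutant with limma, against 15.3% of all tested probe sets in gct-2 and 12.9% in cct-1. An unadjusted p under 0.05 was found for 4 in gct-2 and 2 in cct-1, against 31.3% and 28.9% of all. With any 1 array left out the gct-2 median stayed between -0.15 and -0.12 and that of cct-1 between -0.08 and -0.04. After quantile normalization the medians were -0.09 and -0.02.

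Several ribosomal protein genes lay apart from wild type by small amounts. rps19, of the small subunit, had values of 10.96, 10.87 and 10.89 in wild type, 10.84, 10.84 and 10.85 in cct-1 and 10.81, 10.78 and 10.73 in gct-2, with no overlap between the 3 genotypes and a difference of only -0.13 in gct-2 (95% interval -0.28 to 0.01). rpl36, of the large subunit, was 12.76, 12.75 and 12.77 in wild type, 12.80, 12.73 and 12.73 in cct-1 and 12.63, 12.56 and 12.60 in gct-2. Here gct-2 lay apart from both other genotypes (-0.16, limma adjusted p = 0.13). rpl33 differed by -0.27 in gct-2 (adjusted p = 0.066) and rpl32 by -0.28 (adjusted p = 0.132).

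The 2 probe sets of rps12, whose transcript is spliced together from separately transcribed pieces, differed by -0.41 (limma adjusted p = 0.0529) and -0.13 in gct-2 and by -0.22 and -0.04 in cct-1. They disagreed in size and shared their direction. rps14, which lies beside psaB and psaA in 1 cluster, had the widest spread within a genotype of all members, with a pooled SD of 0.516. Its values were 8.07, 8.92 and 7.44 in wild type, 7.45, 6.97 and 7.44 in cct-1 and 7.17, 7.30 and 7.95 in gct-2, which overlap. Its log2 difference of -0.86 in cct-1 was not called (limma adjusted p = 0.14). Only 1 alternative fit called it, that without wild-type replicate 3, its lowest wild-type array (-1.21, limma adjusted p = 0.0388).

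No RNA polymerase gene was called in limma. rpoA differed by 0.02 in cct-1 (95% interval -0.17 to 0.21) and -0.04 in gct-2 (-0.23 to 0.15). rpoB, which lay under the filter, rpoC1 and rpoC2 share a cluster and differed by -0.04, -0.14 and -0.21 in cct-1 and by -0.15, 0.19 and -0.12 in gct-2. Of the 3 tested genes 0 had an unadjusted p under 0.05 in any of the 3 comparisons, against 22.8% to 31.3% of all tested probe sets. accD, for a subunit of acetyl-CoA carboxylase in fatty acid synthesis, differed by -0.11 in cct-1 and -0.51 in gct-2 (limma adjusted p = 0.158). The latter was called in only 1 alternative fit, that without wild-type replicate 3, its lowest wild-type array (-0.75, limma adjusted p = 0.0427). clpP, for a protease subunit, differed by 0.00 (95% interval -0.19 to 0.18) and -0.08. ccsA, needed to attach haem to c-type cytochromes, differed by -0.36 in gct-2 (adjusted p = 0.0681). matK, for a splicing factor, lay above wild type on all mutant arrays, by 0.11 and 0.17, and was not called (limma adjusted p = 0.436 and 0.195).

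The mutants were compared directly at the same age. Of the 69 tested members 3 were called (4.35%), all lower in cct-1 than in gct-2, against 6.39% of all tested probe sets (3.19% in each direction), and 11 had an unadjusted p under 0.05, against 22.8%. All 3 encode small subunits or assembly proteins of photosystem II. psbI encodes a small core subunit. Its values were 7.27, 7.71 and 7.37 in cct-1, 7.93, 9.03 and 8.69 in gct-2 and 7.89, 7.61 and 7.82 in wild type. All gct-2 arrays lay above the rest, though replicate 1 by little, and the difference of gct-2 from wild type was 0.78 (limma adjusted p = 0.0645). Among fits with 1 array left out, only that without gct-2 replicate 1, the lowest gct-2 array, called it (1.09, limma adjusted p = 0.00547). The mutants differed 2.15-fold (log2 difference -1.10, SE 0.25, limma adjusted p = 0.0348). Its neighbour psbK, another small core subunit, differed by -0.44 (SE 0.23, adjusted p = 0.298).

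psbN, whose product is needed in tobacco to assemble photosystem II, had values of 8.53, 8.42 and 7.99 in cct-1, 8.87, 9.10 and 9.14 in gct-2 and 8.79, 8.91 and 8.60 in wild type. All cct-1 arrays lay below wild type and gct-2, which overlapped (cct-1 minus gct-2 -0.72, SE 0.15, limma adjusted p = 0.0281). psbH, for a phosphorylated core subunit, had 10.28, 10.16 and 10.26 in cct-1, 10.62, 10.73 and 10.71 in gct-2 and 10.59, 10.44 and 10.21 in wild type. The mutants lay apart, with wild type between and overlapping cct-1 (-0.45, SE 0.10, limma adjusted p = 0.0348). Both lie side by side within the psbB cluster, psbN on the opposite strand, and the sources used here do not say which strand its probes read. The other genes of the cluster differed less between the mutants, psbB by -0.15, psbT by -0.17, petB by -0.07 and petD by 0.00.

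With 1 array left out the calls of psbI and psbH held in 3 of 9 fits each and that of psbN in 6. In the fit of both mutants alone psbI (limma adjusted p = 0.0731) and psbN (0.0541) were not called. Each of the 3 calls was lost without gct-2 replicate 2, gct-2 replicate 3 or cct-1 replicate 2, where 0 members were called with limma. The highest adjusted p was 0.121 for psbI, 0.104 for psbN and 0.117 for psbH, each without gct-2 replicate 3. By class, 18 of 22 photosystem members were lower in cct-1 than in gct-2 (median -0.16), and 18 of 24 probe sets for RNA polymerase and ribosomal proteins were higher (median 0.06). With any 1 array left out these medians lay between -0.23 and -0.10 and between 0.04 and 0.11. After median centring 18 of the 22 were lower (median -0.18) and 16 of the 24 higher (median 0.04). Of all 77 members 41 were lower in cct-1 (53.2%), against 46.2% of all 16826 probe sets other than controls (median 0.02). All 3 arrays of cct-1 lay below gct-2 for 6 of the 22 photosystem members, against 11.9% of all probe sets. They lay above it for 4 of the 24 gene expression members, against 13.8%. Between the mutants, the nuclear antenna gene LHCB4.2 differed in the direction of the photosystem members: it was 12.61, 12.52 and 12.58 in cct-1, 13.09 on each gct-2 array and 12.88, 12.81 and 12.70 in wild type. The mutants differed by -0.52 (limma adjusted p = 0.00665). Against wild type LHCB4.2 rose by 0.30 in gct-2 (limma adjusted p = 0.0242), where the photosystem median was -0.03, and differed by -0.23 in cct-1 (0.07). RCA differed by 0.05 between the mutants. The summed level of both markers, as log2, was 13.92 to 13.98 in wild type, 13.86 to 13.93 in cct-1 and 14.09 to 14.11 in gct-2, and the part of green tissue in the photosystem values was not tested.

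**Figure D4:**
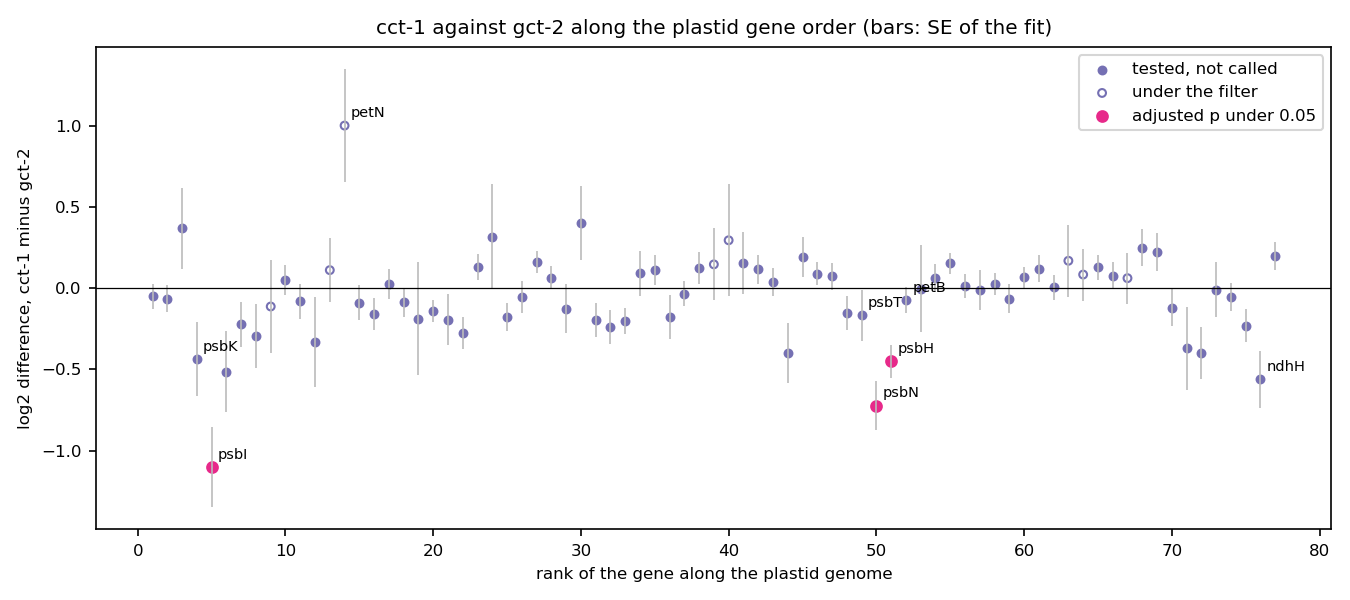
Log2 difference of cct-1 minus gct-2 for the 77 plastid probe sets in the order of their genes along the plastid genome, with bars for the standard error of the fit and open points for members under the filter. psbI and the neighbours psbN and psbH, the 3 members called, lie at -1.10, -0.72 and -0.45, and most other members lie within 0.30 of 0.

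Neighbouring genes resembled each other in the direct comparison more than in those with wild type. The median gap in log2 difference between the 76 pairs of neighbours was 0.143 between the mutants, where the median over all 2926 pairs of members was 0.217. Against wild type the gaps were 0.192 and 0.176 in cct-1 and 0.207 and 0.233 in gct-2. These are descriptions, since pairs share arrays and members. The pooled SD within genotypes had a median of 0.129 over the members, against 0.140 over all tested probe sets, and was largest for rps14, petN (0.511) and petG (0.506). The span of the gene showed little relation to its difference (rho 0.03, 0.05 and -0.07). Members with a lower mean level tended to have larger absolute differences. Spearman's rho was -0.40 for cct-1 and -0.53 for gct-2, each against wild type. For cct-1 minus gct-2 it was -0.34. The median pooled SD was 0.268 over the 34 members with a mean level under 10 and 0.092 over the other 43. Among called members, psbI, psbN, petA and petD lay under that level, and rbcL, psbE and psbH above it.

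Nuclear genes that supply partner subunits or expression factors were thinly covered, with 22 of 134 listed genes on a named probe set and 21 tested. Of the 21, 2 were called in each mutant, all lower, against 12.9% of all tested probe sets in cct-1 and 15.3% in gct-2. Nuclear NDH genes, of which 3 were tested, held 2 of these calls in cct-1 and 1 in gct-2. NDHL (AT1G70760), a membrane subunit, had values of 10.70, 10.68 and 10.60 in wild type, 10.25, 10.18 and 10.02 in cct-1 and 10.10, 10.29 and 10.30 in gct-2. It lay lower on all mutant arrays (log2 difference -0.51 and -0.43, SE 0.09, limma adjusted p = 0.00697 and 0.0132). NDHS (AT4G23890), which lies at the ferredoxin-binding site, fell by 0.50 in cct-1 (SE 0.12, limma adjusted p = 0.0241) and differed by -0.31 in gct-2. NDHN differed by -0.21 and -0.37. Leaving out 1 array kept the calls of NDHL in 9 and 8 of 9 fits and that of NDHS in 6, with an adjusted p of 0.0933 for NDHS when wild-type replicate 2 was left out.

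CRP1 (AT5G42310), an RNA-binding protein whose maize counterpart is needed to process petB and petD transcripts and to translate petA, was the called gene of the 3 tested RNA processing genes. Its values were 10.28, 10.29 and 10.29 in wild type, 10.23, 10.38 and 10.31 in cct-1 and 10.09, 9.81 and 9.94 in gct-2. It was lower in gct-2 than in both other genotypes, by -0.34 against wild type (SE 0.09, limma adjusted p = 0.0286), and differed by 0.02 in cct-1. The mutants differed by 0.36 (limma adjusted p = 0.0427), a call kept in 1 of 9 fits when single arrays were left out, against 4 of 9 for that with wild type. The plastid genes petA and petD, given above, lay below wild type on all arrays of both mutants, while petB differed by -0.10 in cct-1 and -0.03 in gct-2. A relation of CRP1 to these 3 genes was not tested.

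The other nuclear lists held no called gene with limma. Partner subunits of photosystem I (PSAE1 and PSAN) differed by -0.30 and -0.24 in cct-1, those of photosystem II (PSBW and PSBY) by -0.25 and -0.13, and PETM and ATPC1 by -0.10 and -0.04. In gct-2 these 6 genes differed by -0.15 to -0.01. The 9 nuclear genes for plastid ribosomal proteins had medians of -0.10 and -0.05. With limma 0 of the 9 were called in cct-1, gct-2 or between the mutants, against 12.9%, 15.3% and 6.39% of all tested probe sets. RPOTMP, for a phage-type polymerase of plastids and mitochondria, lay under the filter and was the 1 of 24 listed transcription genes with a named probe set.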

How the data were processed

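Expression was measured on 9 Affymetrix arrays. The authors deposited log2 probe set values, whose scale was read from the values themselves. GCRMA and MAS5 are named, with no role or version, per the submitters' processing notes. Background correction, normalization and the choice of the 16863 probe sets are not given in the sources used here. Per the labels' protocols, cDNA was amplified from 50 ng of total RNA. Those protocols do not say how it was primed, which could bear on the share of plastid RNA recovered, since most of it lacks long poly(A) tails.

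Genes came from the platform annotation and a RefSeq gene table (TAIR10.1). Genotype means were estimated from the 9 arrays together with limma 3.58.1 in R 4.3.3 (lmFit, eBayes), leaving out 37 control probe sets, and the 3 contrasts were tested over 10395 probe sets. Members under the filter were taken from a fit without it, as values only. Intervals are 95% intervals of the fit. Alternatives changed the filter, the scaling, the variance model, array weights, the arrays fitted and the replicate block, 1 at a time. The rule for members uses annotation alone, but this gene group, the gene lists and the tests were chosen with earlier results of these data known. Named genes were those called, the largest difference in each class and psaA, psbA, rbcL, rpoB, ndhB, accD and clpP; further members are given to complete their gene clusters. In simulated data with 200 changed probe sets of 10395, a log2 change of 0.5 was recovered in 43.3% of 67 for cct-1, 49.3% for gct-2 and 49.3% between the mutants, and a change of 1 in 92.5%, 92.5% and 91% of 67. The data held a larger share of calls (12.9% of tested probe sets in cct-1 and 15.3% in gct-2 against wild type). The adjusted threshold depends on that share, so these percentages do not give the recovery in the data.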

Additional observations from a re-analysis of the deposited data

Results flagged for a closer look

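The direct comparison of the mutants was called with limma for 3 members. These were psbI (cct-1 minus gct-2 -1.10), psbN (-0.72) and psbH (-0.45), whose values on each array are given above. Their mean differences from wild type had opposite signs in the mutants, but none of those differences was called in the main fit. Array weights called psbI (limma adjusted p = 0.00955) and psbH (0.0349) in gct-2 and psbN in cct-1 (0.0468). In gct-2 psbI was also called with a robust variance that follows intensity (limma adjusted p = 0.0463) and without gct-2 replicate 1 (0.00547). There psbH was also called without wild-type replicate 1 (0.0498). The arrays of cct-1 overlapped wild type for psbI and psbH, and those of gct-2 did for psbN.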

How the results depend on the processing

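With 3 arrays a genotype, calls of members were few and moved with the processing, and a member that was not called is not thereby shown to be unchanged. The cause of these moves was not tested. The number of members called in cct-1, gct-2 and between the mutants (1, 4 and 3) was 6, 10 and 5 with a robust variance that follows intensity. With array weights it was 6 in cct-1 and 9 in gct-2, and in cct-1 it was 2 with quantile normalization or median centring. Between the mutants it was 1 in a fit of the 2 genotypes alone. With 1 array left out it was 0 to 4 in cct-1 (0 when wild-type replicate 2 was left out, 4 for wild-type replicate 3 or gct-2 replicate 1, 3 for cct-1 replicate 1). It was 0 to 5 in gct-2, and leaving out wild-type replicate 2 gave 0, wild-type replicate 1 gave 1, which was higher, gct-2 replicate 2 gave 1, which was lower, and gct-2 replicate 1 gave 2, both higher. In gct-2 the robust variance and the array weights also gave higher calls (1 and 2). It was 0 to 3 between the mutants, with 1 when wild-type replicate 2 or cct-1 replicate 3 was left out. The 5 calls of nuclear genes over the 3 comparisons became 11 with the robust variance, 8 with array weights, 3 in fits of 2 genotypes alone and 1 to 5 with 1 array left out.

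Same-numbered arrays did not deviate together over the tested probe sets (r of -0.268 to 0.0881 over 9 pairs, and 1 of 9 arrays correlated best with its own number). Over the tested members alone r was -0.587 to 0.298. No pairing by number was seen, but the labels do not say whether same-numbered samples shared a harvest. With the replicate number as a block 2, 2 and 1 members and 3 nuclear genes were called.

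The plastid median lay between -0.17 and -0.09 in cct-1, -0.15 and -0.06 in gct-2 and -0.08 and 0.01 between the mutants over all alternatives. Some differences near 0, none called, changed sign. In cct-1 these were rpl32 (0.078 with array weights), clpP (0.015 with quantile normalization) and CRP1 (-0.0051 with median centring). With 1 array left out these ranged over -0.13 to 0.059, -0.053 to 0.027 and -0.022 to 0.055, accD over -0.35 to 0.11, rpoC1 over -0.43 to 0.054 and ndhJ over -0.45 to 0.019. In gct-2 rpoC1 ranged over -0.10 to 0.38, psaC over -0.26 to 0.13, ndhE over -0.078 to 0.11 and rpl20 over -0.15 to 0.10. Between the mutants rbcL ranged over -0.26 to 0.0050, petA over -0.038 to 0.22, petD over -0.16 to 0.18, rps14 over -0.34 to 0.051 and psaJ over -0.012 to 0.35.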
